A study of Mus musculus with 44 samples.

Results

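The comparison described here is that of ZT9 with ZT15 in control mice that had received tumour cells. ZT, zeitgeber time, gives hours after the lights come on, so that ZT9 lies late in the light phase and ZT15 early in the dark phase of a 12 h to 12 h cycle. It was made by taking, from the 44 libraries of the series, the 5 libraries of control mice with tumour at ZT9 and the 5 at ZT15, which are 10 libraries from 10 mice, and by testing the genes with at least 1 CPM (reads of the gene scaled to a fixed total per library) in at least 5 of the 44 libraries, which are 11963 of the 14699 genes listed. This rule uses no measured difference between ZT9 and ZT15. The question was which transcripts of the sorted lymph node cells differ between these times of day, which lie 6 h apart.

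The mice were females of 8 to 12 weeks, C57BL/6N or transgenic by the methods of the study, and the controls carry the genotype label WT without a strain of their own in the labels. They were injected under the skin with B16-F10-OVA, a mouse melanoma line made to express ovalbumin, and the draining inguinal lymph nodes were taken 24 h later, at the same time of day as the injection. CD45+CD11c+MHCIIhigh cells were sorted, a gate that takes dendritic cells (DCs) and above all those that have migrated to the node from the skin. Besides ZT9 and ZT15, 5 such mice each at ZT3 and ZT21 helped to estimate the spread between mice. The other groups of the series that are drawn on below are control mice injected with PBS (sham, 3 at ZT9 and 3 at ZT15) and tumour-bearing mice labelled Bmal1ΔcDC (3 at ZT9 and 3 at ZT15), in which a Cre recombinase driven by Clec9a and a floxed Arntl should remove the clock protein BMAL1 from conventional DCs. Arntl transcripts were not lower in the libraries labelled Bmal1ΔcDC than in control mice, so these are named by their label.

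DCs take up antigen, carry it through lymph vessels to the node and show it to T cells on MHC molecules together with co-stimulatory ligands. The circadian clock of mammalian cells is a loop in which BMAL1 (Arntl) and CLOCK switch on the genes of the PER and CRY proteins, which then repress their own activators, and the loop is tied to the day by light through the brain and by signals such as feeding, hormones and body temperature. Body temperature of mice rises in the dark phase, when they are active, and heat shock proteins, which fold other proteins, are known to follow it upwards, whereas cold-inducible RNA-binding proteins follow it in the opposite direction.

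The 10 libraries held 20406761 to 28962672 reads on genes, and those of the sham-injected and the Bmal1ΔcDC-labelled mice at these times held 28003329 to 49590056. In the 10 libraries, 10636 to 10909 genes reached 1 CPM. The log2 values of any pair of mice of the same time correlated across genes with an r of 0.963 to 0.984. The 100 most abundant genes of a library took 30.6% to 33.3% of its reads at ZT9 and 33.8% to 37.1% at ZT15, so that these shares did not overlap. Libraries were scaled by their total, which does not set the median difference over all genes to 0. This median was 0.12 on the log2 scale, and what it came from was not tested. Labels did not say which mouse belonged to which of the independent experiments, so a batch could not be fitted. Each difference below is that of log2(CPM + 0.5) at ZT9 minus ZT15 with its standard error (SE, n = 5 mice per time), tested with limma, and a gene is said to be higher or lower where its Benjamini–Hochberg adjusted p over all 11963 genes was under 0.05.

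Of the 11963 genes, 1069 were higher at ZT9 (8.94%) and 383 were lower (3.2%). A difference of at least 2-fold was reached by 223 of the higher genes (1.86% of all genes tested) and by 112 of the lower genes (0.936%). In 1037 genes (8.67%) the values of all mice at ZT9 lay above those of all mice at ZT15, in 358 genes (2.99%) they lay below, and of these 735 and 264 passed the test. The counts depended on single mice, with 511 higher and 239 lower without ZT9 replicate 2, 523 and 252 without ZT15 replicate 5, 576 and 235 without ZT9 replicate 4, 620 and 215 without ZT15 replicate 1, and 624 and 250 without ZT9 replicate 3. The excess of higher genes depended on the scaling. When libraries were scaled by the median of ratios, which sets the typical gene rather than the total to be equal, the median difference over all genes was −0.01, and 607 genes were higher and 668 lower. Differences under about 0.1 are therefore not given a direction below. Values after this scaling are given for part of the genes and lists whose calls it changes.

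**Figure D1:**
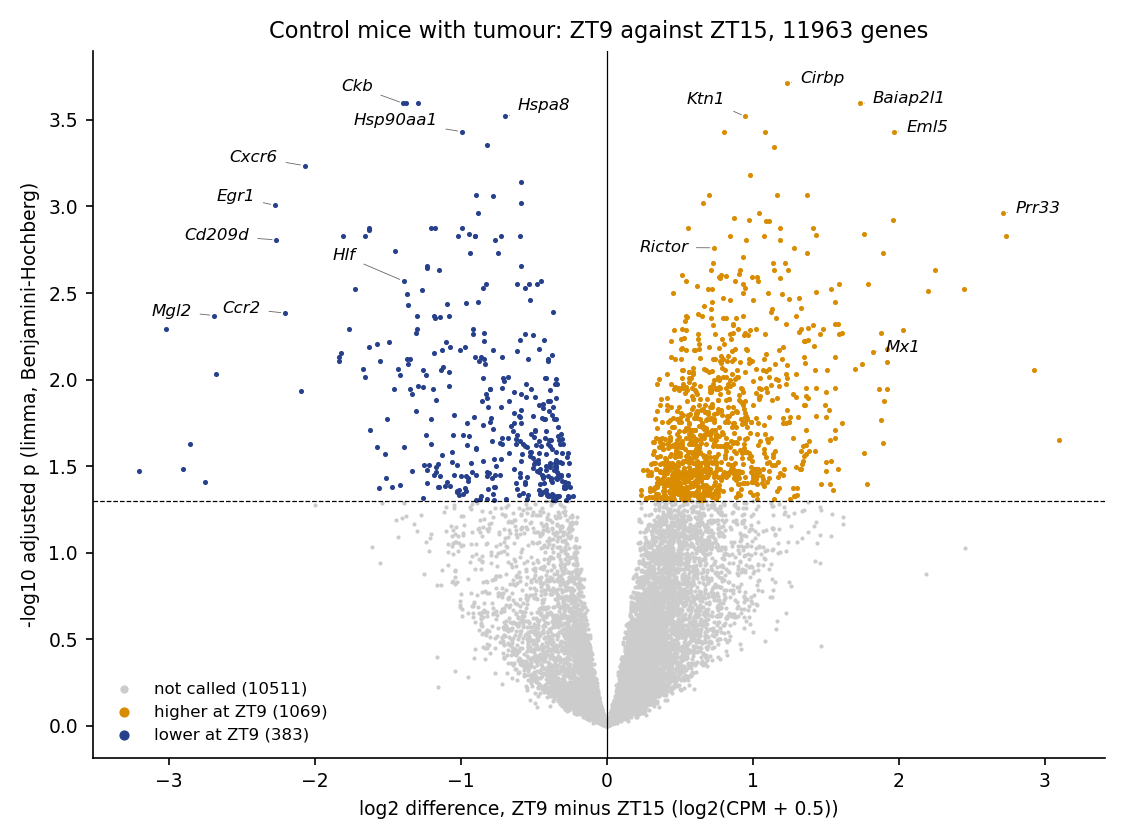
Difference between ZT9 and ZT15 in control mice with tumour for 11963 genes. The x axis gives the log2 difference of log2(CPM + 0.5), ZT9 minus ZT15, and the y axis −log10 of the limma adjusted p. Each point is a gene, orange for the 1069 that were higher at ZT9, blue for the 383 that were lower and grey for the others, and the dashed line marks the adjusted p threshold of 0.05. Cirbp has the smallest adjusted p, and Hspa8, Hsp90aa1, Egr1 and Cxcr6 lie high on the side of lower genes.

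The gene with the smallest p was Cirbp, which encodes the cold-inducible RNA-binding protein (GRCm38 chr10:80165990-80172786). Its values at ZT9 were 185, 156, 193, 197 and 191 CPM. At ZT15 they were 76.2, 101, 73.6, 65.3 and 76.7 CPM. Every mouse at ZT9 stood above every mouse at ZT15, a difference of 1.24 ± 0.13 (SE, n = 5 per time, limma adjusted p = 0.000193), which is 2.36-fold. Cirbp was called with each of 30 other settings (other pseudocounts, scaling, filters, models, and the omission of each of the 20 control tumour libraries), with an adjusted p of at most 0.00136. At ZT3 and ZT21 its mean was 104 and 104 CPM, between those of ZT9 and ZT15. Rbm3, the other cold-inducible gene of the list, differed by 0.19 ± 0.13 and did not pass the test (adjusted p = 0.342).

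The heat shock and chaperone list had 38 members, all of which were tested. Of these, 21 were lower at ZT9 and 2 were higher, against 3.2% and 8.94% of all genes. The median difference of the list was −0.38, where that of all genes was 0.12, and −0.53 after median-of-ratios scaling. The higher members were Cirbp and Hsf2, neither of which encodes a chaperone. Of the 21 lower members, 19 did not overlap between the times, as did 264 of all 383 lower genes (2.99% of all genes lay wholly below at ZT9). All 21 had their lowest mean of the 4 timepoints at ZT9 and 20 their highest at ZT15, which choosing lower members favours and which is given as a description. Summed over the list, the level was 6597 to 6878 CPM in the 5 mice at ZT9 and 8731 to 9607 CPM in the 5 at ZT15.

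Hspa8 encodes the constitutive HSP70 chaperone of the cytosol (chr9:40801276-40805202). It stood at 1528, 1596, 1546, 1534 and 1659 CPM at ZT9. At ZT15 the mice had 2645, 2144, 2643, 2759 and 2578 CPM, and replicate 2 was the lowest of them. The groups did not overlap, and the difference was −0.69 ± 0.09 (adjusted p = 0.000302), or 1.62-fold. The inducible HSP90 gene Hsp90aa1 had 221, 201, 192, 185 and 170.2 CPM at ZT9. It had 391, 443, 316, 374 and 411 CPM at ZT15, where no mouse was as low as any at ZT9, and differed by −0.99 ± 0.13 (adjusted p = 0.00037). Its constitutive paralogue Hsp90ab1 differed by −0.59 ± 0.09 (adjusted p = 0.000957).

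The largest difference among the chaperones was that of Hsph1, an HSP110 that helps HSP70 to exchange nucleotide. Its values were 19.4, 32.3, 20.9, 27.97 and 12.4 CPM at ZT9. They were 53.2, 33.6, 64.9, 62.6 and 60.1 CPM at ZT15. The mouse of replicate 2 at ZT15 was close to that of replicate 2 at ZT9, all others being well apart, and the difference was −1.30 ± 0.25 (adjusted p = 0.00429). The HSP40 genes Dnajb1 and Dnaja1, which hand substrates to HSP70, were both lower. Dnajb1 was at 66.4, 68.96, 71.3, 66.7 and 62.3 CPM at ZT9 and at 115, 119, 113, 119 and 109 CPM at ZT15 (−0.78 ± 0.11, adjusted p = 0.000871). Dnaja1 was at 187, 173, 171, 159.7 and 170.1 CPM and at 302, 313, 244, 292 and 316 CPM (−0.76 ± 0.12, adjusted p = 0.00156), with values that were fractions of a read in 70.5% of the libraries. Neither gene overlapped between the times.

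The group of 13 genes of co-chaperones, most of which work with HSP70 or HSP90, also held the heat shock factors Hsf1 and Hsf2 and the collagen chaperone gene Serpinh1. Of these 13, 7 were lower, 1 (Hsf2) was higher and 5 were not called. Fkbp4, an immunophilin of the steroid receptor complexes, had 31.7, 40.4, 38.5, 29.1 and 23.7 CPM at ZT9. It had 62.99, 58.3, 61.3, 71.4 and 57.2 CPM at ZT15, with no overlap (−0.94 ± 0.15, adjusted p = 0.00145). Stip1, the adaptor between HSP70 and HSP90, differed by −0.54 ± 0.11 (adjusted p = 0.00757), St13 by −0.59 ± 0.10 (adjusted p = 0.0022) and Cacybp by −0.62 ± 0.11 (adjusted p = 0.00279). Of 10 chaperonin genes, 8 were lower. Among them Hspd1, which forms the barrel of the mitochondrial chaperonin, differed by −0.39 ± 0.10 (adjusted p = 0.0152). Its lid, Hspe1, had 65.7, 49.97, 60.4, 57.4 and 56.6 CPM at ZT9 and 85.7, 115, 71.2, 76.02 and 103 CPM at ZT15. These did not overlap (−0.62 ± 0.16, adjusted p = 0.0209), but the call of Hspe1 was lost without ZT9 replicate 2 or without ZT15 replicate 5, with an adjusted p of up to 0.0558. The smallest of these differences was that of Cct5, a subunit of the cytosolic chaperonin (−0.27 ± 0.08, adjusted p = 0.0281), called in 22 of 30 settings.

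The inducible HSP70 genes Hspa1a and Hspa1b, near-identical copies between which reads cannot be split with confidence, were not called (−0.65 ± 0.46 and −0.48 ± 0.49, adjusted p = 0.368 and 0.551). Hsf1, which encodes the master regulator of the heat shock response, was not called either (0.33 ± 0.19, adjusted p = 0.261). Its relative Hsf2 was higher at ZT9, with 27.4, 23.96, 23.1, 28.5 and 22.2 CPM against 11.4, 16.01, 10.6, 11.1 and 11.2 CPM at ZT15. No mouse at ZT15 reached the lowest at ZT9 (1.04 ± 0.18, adjusted p = 0.0027), and the call held with all 30 settings.

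**Figure D2:**
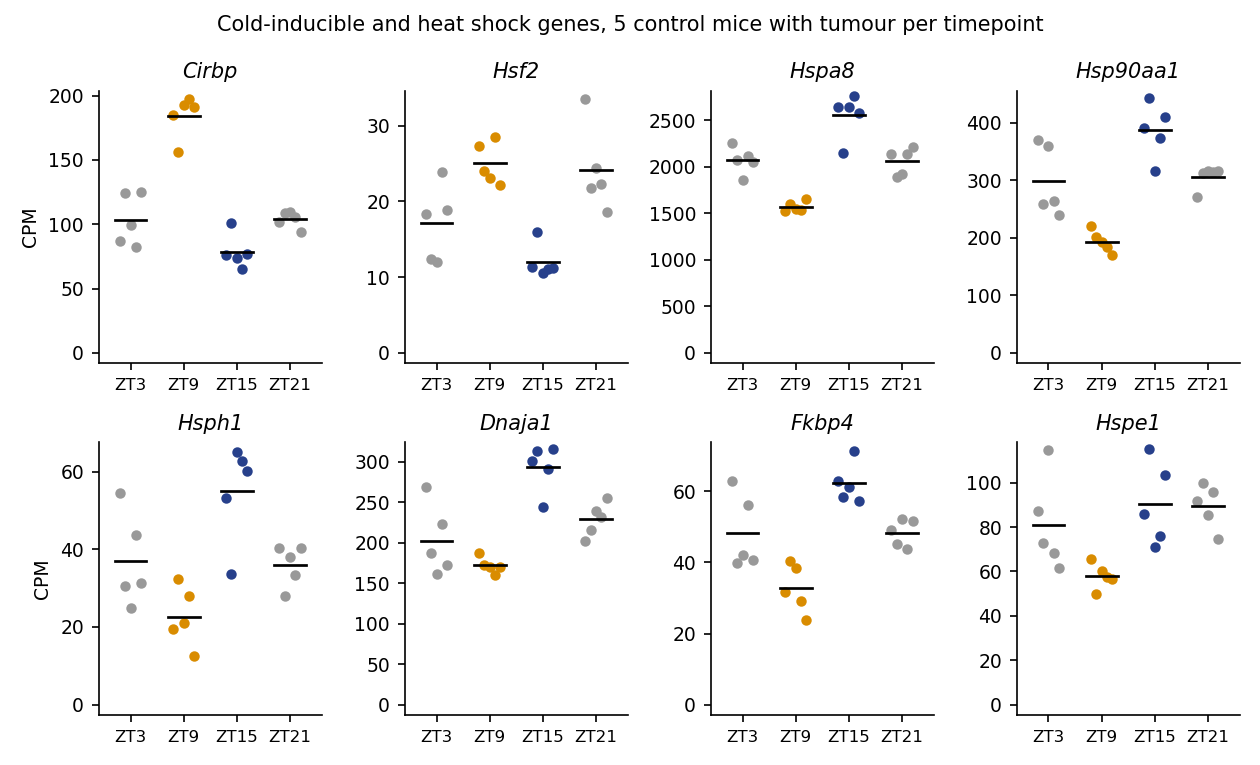
CPM (y axis, linear, from 0) of 8 genes in each of 5 control mice with tumour at ZT3, ZT9, ZT15 and ZT21 (x axis). Each point is a mouse and each line the mean of 5 mice, with ZT9 in orange and ZT15 in blue. Cirbp and Hsf2 stand highest at ZT9 and lowest at ZT15, and Hspa8, Hsp90aa1, Hsph1, Dnaja1, Fkbp4 and Hspe1 stand lowest at ZT9 and highest at ZT15.

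Heat shock factors bind arrays of the pentamer NGAAN, of which a facing pair reads GAANNTTC. These letters were searched for in the RefSeq promoter windows of GRCm38.p6, which run from 250 bases before to 50 bases after a gene's start. The word is its own reverse complement, so that a search of either strand finds the same matches. It was present in 7.86% of all 32851 windows. The counts that follow are per gene, with the word in any of its windows. Some genes have more than 1 window, so that these counts and the share per window are not alike. Of the 21 lower members of the list 17 had a window, and 6 of these held the word. Of 15 members that were not called 12 had a window, and 6 of these held it, whereas neither window of Cirbp nor that of Hsf2 did. A match is a description and not a binding site. The windows below, 5′ to 3′ on the strand of the gene with the word in capitals, are shown for 5 of the 6 lower members in which it was found (Hspd1, with the word in 1 of its 2 windows, is left out) and for Cirbp as the opposite case. They are those of Hsph1 (chr5:149636287-149636586, minus strand), Fkbp4 (chr6:128438607-128438906, minus strand), Dnaja1 (chr4:40722218-40722517, plus strand), Hspe1 (chr1:55087898-55088197, plus strand), Chordc1 (chr9:18292017-18292316, plus strand, with 2 copies that span the start) and Cirbp (chr10:80167589-80167888, plus strand).
Hsph1: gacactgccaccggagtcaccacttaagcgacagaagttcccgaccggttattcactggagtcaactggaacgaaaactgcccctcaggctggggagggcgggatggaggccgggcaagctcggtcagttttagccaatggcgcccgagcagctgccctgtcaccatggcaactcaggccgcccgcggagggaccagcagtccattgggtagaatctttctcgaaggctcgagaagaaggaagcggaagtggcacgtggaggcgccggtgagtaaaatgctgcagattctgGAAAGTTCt
Fkbp4: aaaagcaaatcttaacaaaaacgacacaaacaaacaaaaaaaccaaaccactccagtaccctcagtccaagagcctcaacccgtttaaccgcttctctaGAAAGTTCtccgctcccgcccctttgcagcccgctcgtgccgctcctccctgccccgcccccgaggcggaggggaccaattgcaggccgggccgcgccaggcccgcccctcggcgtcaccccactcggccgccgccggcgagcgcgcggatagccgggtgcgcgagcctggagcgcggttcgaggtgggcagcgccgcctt
Dnaja1: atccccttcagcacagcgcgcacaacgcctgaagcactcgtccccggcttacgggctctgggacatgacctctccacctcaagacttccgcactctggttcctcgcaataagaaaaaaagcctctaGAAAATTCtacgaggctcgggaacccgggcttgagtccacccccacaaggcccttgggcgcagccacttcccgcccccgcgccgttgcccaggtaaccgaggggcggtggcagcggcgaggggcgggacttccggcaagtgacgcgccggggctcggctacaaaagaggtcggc
Hspe1: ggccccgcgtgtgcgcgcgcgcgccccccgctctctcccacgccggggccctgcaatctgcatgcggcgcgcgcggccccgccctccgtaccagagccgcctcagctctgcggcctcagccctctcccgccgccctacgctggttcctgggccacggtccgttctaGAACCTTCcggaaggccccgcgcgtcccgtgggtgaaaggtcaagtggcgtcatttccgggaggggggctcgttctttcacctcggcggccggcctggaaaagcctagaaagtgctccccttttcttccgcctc
Chordc1: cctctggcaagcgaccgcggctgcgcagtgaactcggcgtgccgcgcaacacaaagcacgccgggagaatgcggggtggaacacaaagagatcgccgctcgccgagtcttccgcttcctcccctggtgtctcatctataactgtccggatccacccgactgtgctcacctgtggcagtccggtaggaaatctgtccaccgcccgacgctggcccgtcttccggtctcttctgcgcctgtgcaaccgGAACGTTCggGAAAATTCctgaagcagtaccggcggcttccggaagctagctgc
Cirbp: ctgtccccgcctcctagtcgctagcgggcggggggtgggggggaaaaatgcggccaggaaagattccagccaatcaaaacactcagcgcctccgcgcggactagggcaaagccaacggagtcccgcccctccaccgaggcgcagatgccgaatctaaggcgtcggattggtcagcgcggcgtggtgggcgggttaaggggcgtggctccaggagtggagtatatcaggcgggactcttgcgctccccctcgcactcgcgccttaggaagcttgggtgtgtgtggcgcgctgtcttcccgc

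Chordc1, the HSP90 co-chaperone whose window holds the word at the start itself, had 72.4, 77.4, 70.2, 79.1 and 75.3 CPM at ZT9 and 115, 109, 98.9, 106 and 81.00 CPM at ZT15. All mice at ZT9 lay below all at ZT15 (−0.44 ± 0.13, adjusted p = 0.0371), although the call was lost without any 1 of 9 of the 10 mice (adjusted p up to 0.0899).

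Splicing factors are RNA-binding proteins of the nucleus. Of 57 splicing factors 11 were higher and 3 lower, where 8.94% and 3.2% of all genes were. After median-of-ratios scaling 4 were higher and 5 lower, near the shares that 607 and 668 of 11963 genes make. The list's median was 0.02, below that of all genes. Srsf5, an SR protein that promotes exon inclusion, had 399, 339, 369, 360.1 and 324 CPM at ZT9. At ZT15 it had 183, 294, 145, 130.0 and 123 CPM, in which replicate 2 stood above the other 4 mice and still below every mouse at ZT9 (1.11 ± 0.20, adjusted p = 0.00318). Hnrnpdl, an AU-rich element binding hnRNP, had 58.1, 70.5, 61.3, 74.8 and 59.9 CPM at ZT9 and 33.4, 48.6, 22.2, 26.9 and 22.5 CPM at ZT15, again without overlap (1.12 ± 0.21, adjusted p = 0.00407). The calls of Srsf5 and Hnrnpdl held with all 30 settings.

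Other genes with the smallest p among those that were higher at ZT9 belonged to no list. Ktn1, which encodes the kinesin anchor kinectin of the endoplasmic reticulum (chr14:47648274-47736564), had 208, 199, 205, 234 and 188 CPM at ZT9. It had 108, 127, 94.3, 114 and 93.5 CPM at ZT15, with a difference of 0.95 ± 0.12 (adjusted p = 0.000302). Baiap2l1, an actin-binding protein (chr5:144264525-144358112), had low values, 4.07, 4.55, 3.19, 3.77 and 4.02 CPM and 0.705, 1.05, 0.587, 0.676 and 1.18 CPM. Its 2 groups lay far apart in relation to their spread (1.74 ± 0.21, adjusted p = 0.000254).

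Gpcpd1, a glycerophosphocholine phosphodiesterase, had 273, 313, 329, 353 and 310.2 CPM at ZT9 and 154, 174, 146, 181 and 145 CPM at ZT15 (0.98 ± 0.14, adjusted p = 0.000659). Zfc3h1, which directs polyadenylated nuclear RNA to the exosome, had 205, 182, 202, 221 and 146 CPM and 64.8, 105, 63.01, 65.8 and 72.8 CPM (1.37 ± 0.20, adjusted p = 0.000853). In Zfc3h1 the mouse of replicate 2 was the highest at ZT15 by some margin, but it remained below all mice at ZT9. Rab26, a small GTPase of secretory vesicles, differed by 1.08 ± 0.14 (adjusted p = 0.00037), the centriolar gene Ofd1 by 0.70 ± 0.10 (adjusted p = 0.000853) and the mitochondrial protease gene Htra2 by 0.81 ± 0.10 (adjusted p = 0.00037, with fractions of a read in 47.7% of the libraries).

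Eml5, a microtubule-associated protein, differed by 1.97 ± 0.26 (adjusted p = 0.00037), Haghl by 1.15 ± 0.15 (adjusted p = 0.000455) and Dclre1c, the nuclease Artemis, by 1.16 ± 0.17 (adjusted p = 0.000853). Their values were fractions of a read in 95.5%, 90.9% and 88.6% of the libraries and are less certain, since the sources used here do not say how such fractions arose. All of the genes of this group, Cirbp included, were called with all the settings in which they could be tested. Prr33, a gene of unknown function that is named for its interaction with the genotype label given further on, had 24.9, 20.9, 24.4, 25.7 and 13.4 CPM at ZT9. It had 1.59, 6.91, 2.24, 3.08 and 2.16 CPM at ZT15, a 6.56-fold difference (2.71 ± 0.41, adjusted p = 0.00109).

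Among the 1069 higher genes, replicate 2 had the highest value of the 5 mice at ZT15, and so lay nearest to ZT9, in 518 (48.5%). Among the 383 lower genes, the lowest value at ZT15 was that of replicate 3 in 114 (29.8%) and of replicate 2 in 95 (24.8%). Without ZT15 replicate 2, 1117 genes were higher and 349 lower.

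Of 18 clock genes tested 1 was higher and 1 lower, which is near the shares of all genes (8.94% and 3.2%), and 1 was higher and 2 lower with median-of-ratios scaling. Hlf, a PAR-bZIP activator of clock outputs, was listed at 0 in 3 mice at ZT9 and at 0.0929 and 0.129 CPM in the other 2. At ZT15 it stood at 1.28, 0.758, 1.04, 0.676 and 0.931 CPM, low values that nevertheless lay above all at ZT9 (−1.39 ± 0.25, adjusted p = 0.0027). With values at 0 the size of this difference depends on the pseudocount, and it was −0.88 with a pseudocount of 1 and −2.91 with 0.1. Per3, a repressor of the loop, had 13.1, 17.2, 12.6, 10.5 and 9.53 CPM at ZT9 and 3.30, 11.5, 2.38, 5.07 and 4.21 CPM at ZT15. Replicate 2 at ZT15 lay within the range of ZT9 (1.33 ± 0.38, adjusted p = 0.0329), and the call was kept in 21 of 29 settings, with an adjusted p of up to 0.0785 where a mouse was left out. Arntl had 17.3, 17.2, 16.8, 12.7 and 14.4 CPM and 9.60, 15.2, 8.67, 12.3 and 11.8 CPM, which overlapped (0.45 ± 0.19, adjusted p = 0.12). Per1 and Dbp, a direct target of BMAL1, did not pass the test either, with differences of 0.38 ± 0.21 and −0.16 ± 0.14 (adjusted p = 0.235 and 0.503). The Dbp values were fractions of a read in 97.7% of the libraries. The promoter window of Per3 (GRCm38.p6 chr4:151044616-151044915, minus strand) is shown because it holds 2 copies of TTATGNAA, the D-box word bound by HLF and DBP, in capitals. This word, searched on both strands, was in 3.38% of all windows.
Per3: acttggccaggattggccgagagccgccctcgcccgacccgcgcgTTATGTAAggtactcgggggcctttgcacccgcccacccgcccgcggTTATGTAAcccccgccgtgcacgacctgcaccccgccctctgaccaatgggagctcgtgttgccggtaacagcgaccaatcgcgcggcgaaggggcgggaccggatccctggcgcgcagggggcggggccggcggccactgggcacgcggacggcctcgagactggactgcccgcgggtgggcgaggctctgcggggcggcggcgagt

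Immediate early genes respond within minutes to stimulation or to tissue dissociation. Of 22 such genes 11 were lower at ZT9 (3.2% of all genes were), none was higher and 11 were not called, and in 3 all mice at ZT9 lay below all at ZT15 (2.99% of all genes). For the list, the median was −0.59, beside 0.12 for all genes. The largest difference was that of Egr1, a zinc finger transcription factor (chr18:34861207-34864956). Its values at ZT9 were 91.9, 78.8, 51.6, 54.2 and 38.6 CPM. At ZT15 they were 349.7, 318, 315, 309.7 and 197 CPM, with replicate 5 well below the other 4 mice but above all at ZT9 (−2.27 ± 0.33, adjusted p = 0.000984, 4.83-fold). Fos, a subunit of AP-1, had 591, 529, 319, 373 and 359 CPM and 881, 911, 798, 1016 and 676 CPM (−1.01 ± 0.21, adjusted p = 0.00672). Ier2 had 167, 103, 79.2, 105 and 89.8 CPM at ZT9 and 253, 284, 217, 209.8 and 164 CPM at ZT15, where the mouse of replicate 5 fell just under the highest at ZT9 (−1.07 ± 0.22, adjusted p = 0.00646). Klf2, a quiescence and trafficking factor, differed by −0.83 ± 0.15 (adjusted p = 0.00279), and its groups did not overlap. The count of lower genes of this list was 5 to 7 without any 1 of ZT9 replicates 2 to 5 or ZT15 replicates 1 to 4, 11 without ZT9 replicate 1, 15 without ZT15 replicate 5, and 17 with median-of-ratios scaling. These genes also respond to the handling of tissue, and the part of it in the difference was not tested.

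Of 13 cytokine genes linked to T cell priming 2 were higher and 3 lower, against 8.94% and 3.2% of all genes. Il1b, the inflammasome-dependent interleukin-1β, had 121, 109, 73.5, 105 and 50.4 CPM at ZT9. It had 339.6, 418, 183, 212 and 168 CPM at ZT15, and no value of the groups overlapped (−1.49 ± 0.30, adjusted p = 0.0061). Tnf had 26.4, 32.2, 16.6, 25.7 and 13.8 CPM and 92.1, 103, 59.5, 60.1 and 37.2 CPM, again without overlap (−1.57 ± 0.32, adjusted p = 0.00627, 2.97-fold). Tgfb1 was lower as well (−0.59 ± 0.14, adjusted p = 0.015). The higher genes were those of interleukin-15, which sustains CD8+ T cells and NK cells, and of the receptor chain that presents it. Il15ra had 406, 375, 411, 451 and 405 CPM at ZT9 and 237, 362, 236, 215 and 219.7 CPM at ZT15 (0.72 ± 0.18, adjusted p = 0.0167). Il15 differed by 0.51 ± 0.14 (adjusted p = 0.0241), but was called in 24 of 30 settings only and not with median-of-ratios scaling (adjusted p = 0.079).

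Chemokines and their receptors were lower or not called. Of 24 genes 10 were lower and none was higher, against 3.2% and 8.94% of all genes, and their median was −0.55, against 0.12. Their summed level was 19816 to 21838 CPM at ZT9 and 18731 to 21857 CPM at ZT15, which overlapped. Cxcl9 and Cxcl10, interferon-induced ligands of CXCR3 that attract T cells and NK cells, were both lower. Cxcl9 had 8.33, 7.38, 12.7, 9.89 and 7.05 CPM at ZT9 and 18.5, 26.1, 20.1, 14.7 and 31.6 CPM at ZT15 (−1.23 ± 0.21, adjusted p = 0.00226). Cxcl10 differed by −1.24 ± 0.27 (adjusted p = 0.00941), and the chemokine gene Ccl4 by −1.83 ± 0.39 (adjusted p = 0.00744). The receptor Cxcr6, which T cells, NK cells and some DCs carry (chr9:123806477-123811754), was among the 12 lower genes with the smallest p. It had 5.59, 7.43, 4.88, 4.55 and 6.06 CPM at ZT9. It had 39.8, 18.7, 25.03, 27.9 and 19.5 CPM at ZT15, so that the highest at ZT9 was well below the lowest at ZT15 (−2.07 ± 0.28, adjusted p = 0.000581, 4.19-fold). Each of these calls held with all 30 settings.

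Interferon-stimulated genes had no common direction, with 2 of 28 higher and 2 lower (8.94% and 3.2% of all genes). Mx1, an antiviral GTPase, had 222, 275, 244, 229 and 211 CPM at ZT9. It had 74.03, 145, 50.02, 52.8 and 44.6 CPM at ZT15, where replicate 2 had the highest value (1.82 ± 0.38, adjusted p = 0.0069). At ZT3 the mice were spread over the range of both times, from 47.5 to 269 CPM. Mx1 values were fractions of a read in 75.0% of the libraries.

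**Figure D3:**
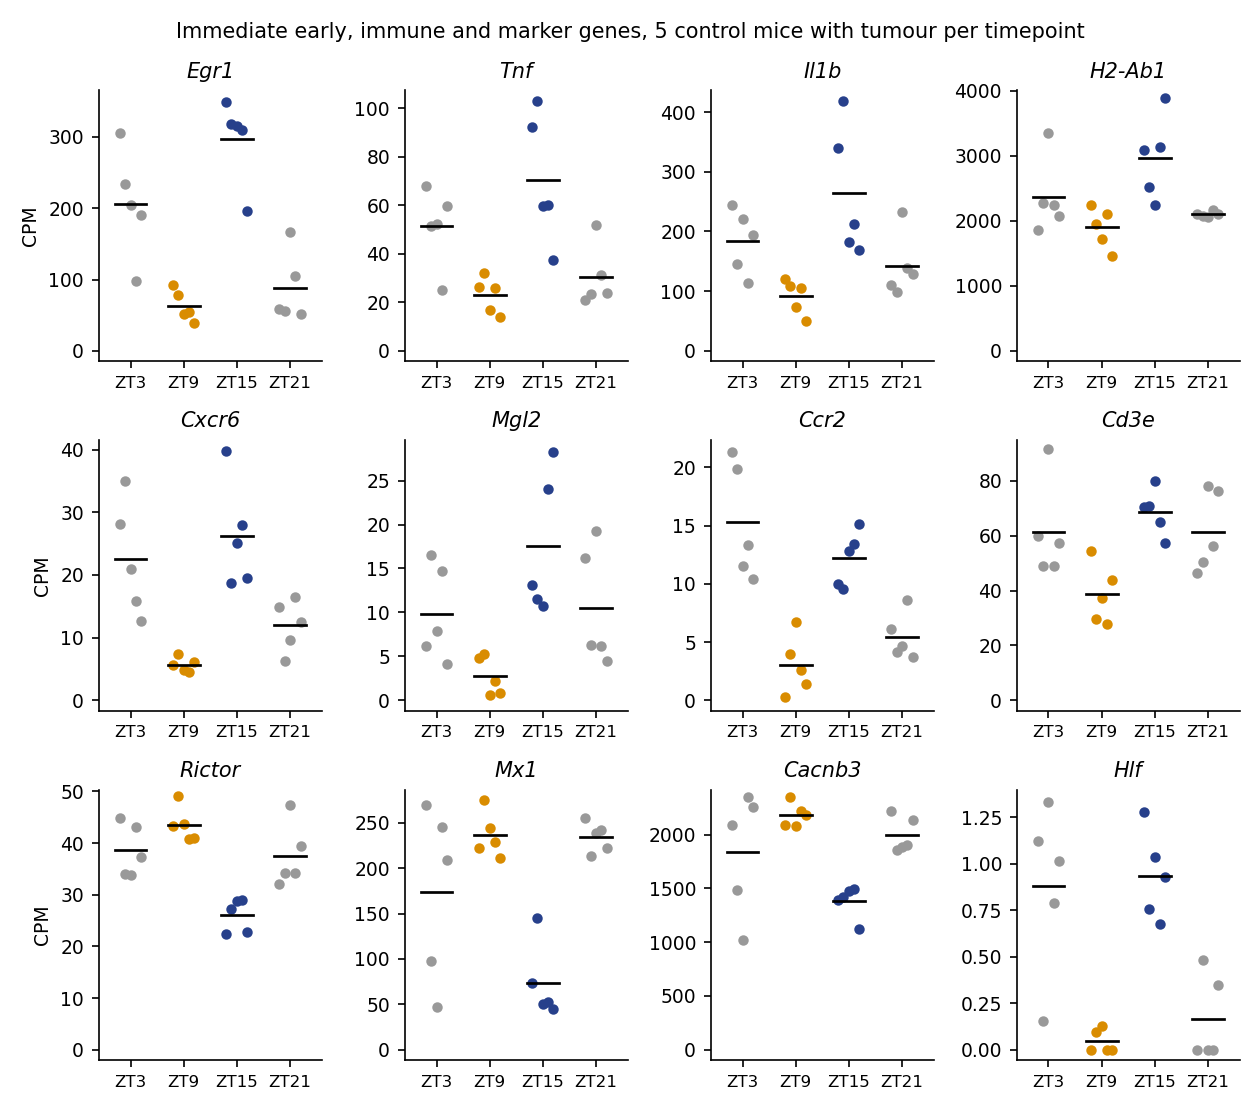
CPM (y axis, linear, from 0) of 12 genes in each of 5 control mice with tumour at ZT3, ZT9, ZT15 and ZT21 (x axis). Each point is a mouse and each line the mean of 5 mice, with ZT9 in orange and ZT15 in blue. Egr1, Tnf, Il1b, H2-Ab1, Cxcr6, Mgl2, Ccr2, Cd3e and Hlf have their lowest mean at ZT9, whereas Rictor, Mx1 and Cacnb3 have their lowest at ZT15.

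The apparatus that loads peptides on MHC class II, which CD4+ T cells read, was lower at ZT9 in part. Of 14 genes 6 were lower and none was higher (3.2% and 8.94% of all genes), with a median of −0.43 (0.12 over all genes), and their summed level was 16126 to 20319 CPM at ZT9 and 21166 to 31201 CPM at ZT15. H2-Ab1, the class II beta chain that belongs to the sorting gate itself, had 2238, 1950.0, 1724, 2106 and 1461 CPM at ZT9. It had 3081, 2516, 2243, 3128 and 3881 CPM at ZT15, where replicate 3 was barely above the highest at ZT9 (−0.64 ± 0.16, adjusted p = 0.0179). The alpha chain gene H2-Aa differed by −0.46 ± 0.13 (adjusted p = 0.0264), the invariant chain gene Cd74 by −0.54 ± 0.15 (adjusted p = 0.0244), and H2-DMa, which helps peptides to exchange, by −0.66 ± 0.17 (adjusted p = 0.0185). The number of lower class II genes was 8 with median-of-ratios scaling, 2 without ZT9 replicate 2 or without ZT15 replicate 1, and 0 without ZT15 replicate 5, in which these genes were highest.

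Of 17 genes of MHC class I and its loading 1 was higher and none lower, near the 8.94% and 3.2% of all genes, with a median of −0.02. The higher gene was Nlrc5, the transactivator of class I genes, with 141, 203, 198, 201 and 140.3 CPM at ZT9 and 79.6, 116, 97.6, 103 and 64.4 CPM at ZT15 (0.94 ± 0.26, adjusted p = 0.0262). Its call was kept in 25 of 30 settings, and it was lost without ZT9 replicates 2, 3 or 4 and ZT15 replicates 1 or 5 (adjusted p up to 0.0719). None of 31 proteasome genes and none of 15 Toll-like receptor genes was called in either direction, where 8.94% of all genes were higher and 3.2% lower.

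Of 12 co-stimulatory ligands 1 was higher and 2 lower, where 8.94% and 3.2% of all genes were. Cd80, the B7 ligand of CD28 on T cells, had 15.8, 17.2, 9.50, 15.3 and 12.1 CPM at ZT9. It had 11.2, 12.3, 10.9, 7.39 and 8.23 CPM at ZT15, so that replicates 3 and 5 at ZT9 lay within the range of ZT15, and the difference of 0.46 ± 0.16 did not pass the test (adjusted p = 0.074). Tnfsf9, the ligand of 4-1BB, was lower, with 30.4, 36.96, 21.4, 32.4 and 19.9 CPM and 88.2, 113, 42.4, 45.95 and 53.8 CPM (−1.20 ± 0.30, adjusted p = 0.0168). Icosl, the ICOS ligand, was higher by 0.56 ± 0.17 (adjusted p = 0.036), and Pdcd1lg2, which encodes the inhibitory ligand PD-L2, differed by −0.62 ± 0.19 (adjusted p = 0.043). The last 2 calls depended on the setting. That of Icosl was kept in 21 of 30 settings and lost with median-of-ratios scaling (adjusted p = 0.052), and that of Pdcd1lg2 was kept in 16.

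The PI3K, AKT and mTOR genes, which carry growth factor and co-stimulatory signals to metabolism, were higher at ZT9 or not called. Of 19 genes 5 were higher and none was lower, against 8.94% of all genes, and the median was 0.36, or 0.22 with median-of-ratios scaling, in which 3 were higher and 1 lower. Rictor, the scaffold that defines mTOR complex 2, had 43.2, 49.04, 43.8, 40.9 and 41.02 CPM at ZT9. It had 22.5, 27.3, 28.8, 28.97 and 22.9 CPM at ZT15, without overlap (0.74 ± 0.12, adjusted p = 0.00173). Tsc1, which restrains mTOR complex 1, had 27.1, 43.6, 43.3, 39.3 and 29.7 CPM and 19.4, 17.7, 23.3, 25.5 and 17.6 CPM (0.80 ± 0.15, adjusted p = 0.00441). Both calls held with all 30 settings. Mtor, the kinase of both complexes, had 28.6, 42.6, 52.1, 41.2 and 39.4 CPM and 26.3, 19.4, 33.3, 22.4 and 26.3 CPM, where 1 mouse of each time crossed into the range of the other (0.66 ± 0.22, adjusted p = 0.0592), and was not called. Pik3r1, the regulatory subunit of PI3K, differed by 0.41 ± 0.09 (adjusted p = 0.00935) and was not called with median-of-ratios scaling (adjusted p = 0.0734).

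Sterol genes had small differences. Of 21 genes of cholesterol synthesis 3 were higher and none lower, where 8.94% of all genes were higher, and 1 was higher with median-of-ratios scaling. Their median was 0.26, or 0.11 with that scaling. Sc5d, a desaturase of the last steps, had 97.4, 107, 102, 106 and 90.5 CPM at ZT9. It had 63.6, 75.4, 80.6, 68.8 and 65.9 CPM at ZT15, without overlap (0.51 ± 0.11, adjusted p = 0.0076). Sqle, squalene epoxidase, differed by 0.56 ± 0.14 (adjusted p = 0.018), and Hmgcs1 by 0.51 ± 0.16 (adjusted p = 0.0439). With median-of-ratios scaling Sqle and Hmgcs1 were not called (adjusted p = 0.0771 and 0.161), nor was Insig1, which keeps the sterol sensor in the endoplasmic reticulum and was higher by 0.52 ± 0.12 (adjusted p = 0.00985, and 0.078 after that scaling). Of the genes that cells use to dispose of sterols, the oxysterol receptor gene Nr1h3 differed by −0.68 ± 0.15 without overlap (adjusted p = 0.00973) and its target Abcg1, an efflux pump, differed by −0.35 ± 0.08 (adjusted p = 0.00999). The median of the 15 genes of sterol sensing and transport was 0.14, where that of all genes was 0.12. With median-of-ratios scaling it was −0.0017, where that of all genes was −0.01.

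Of 16 glycolysis genes 4 were lower and none higher, where 3.2% and 8.94% of all genes were, with a median of −0.19. With median-of-ratios scaling 6 were lower and the median was −0.33. Ldha, lactate dehydrogenase A, had 178, 204, 199, 178 and 207 CPM at ZT9. It had 315, 261, 291, 294 and 292 CPM at ZT15 without overlap (−0.59 ± 0.08, adjusted p = 0.000724). Eno1 and Pgam1, enzymes of the lower pathway, differed by −0.51 ± 0.10 and −0.44 ± 0.11 (adjusted p = 0.00555 and 0.0147). None of 79 cytosolic ribosomal protein genes was called, and of 73 genes of oxidative phosphorylation 2 were lower, Cycs and Atp5g3 (adjusted p = 0.0371 and 0.0461), both kept in at most 21 of 30 settings. With median-of-ratios scaling 6 of the 73 were lower, where 668 of all 11963 genes were. None of 12 genes of fatty acid synthesis was called, and their median was −0.06.

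**Figure D4:**
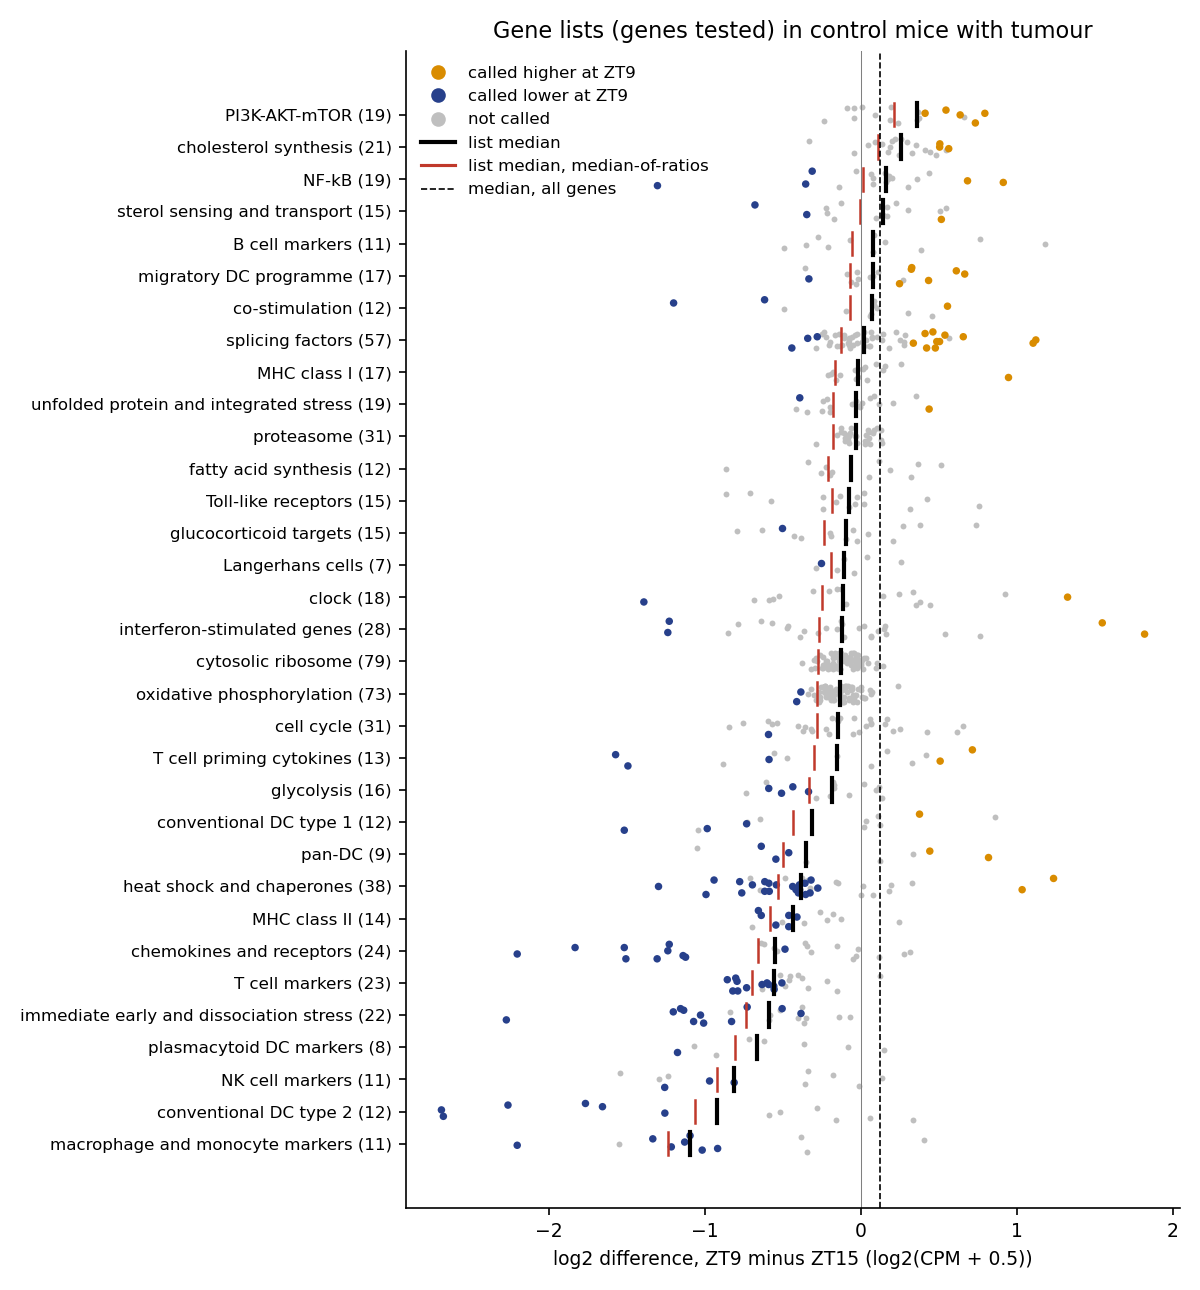
Log2 difference, ZT9 minus ZT15 (x axis, log2(CPM + 0.5)), of the members of each gene list (y axis, with the number of genes tested) in control mice with tumour. Each point is a gene, orange or blue where it was called higher or lower at ZT9 and grey otherwise, a black bar is the list's median, a red bar its median with median-of-ratios scaling, and the dashed line is the median of all genes (0.12). Macrophage and type 2 DC markers have the lowest medians among the lists shown, and PI3K, AKT and mTOR genes the highest.

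The sorted cells were checked against markers of DCs and of other cells. DC genes were detected in all 10 libraries, such as Cd74 with 8299 to 16209 CPM and the DC growth factor receptor gene Flt3 with 461 to 769.9 CPM. Flt3 had 623, 647, 705, 769.9 and 696 CPM at ZT9 and 461, 557, 498, 499 and 513 CPM at ZT15 (0.44 ± 0.11, adjusted p = 0.0144). Zbtb46, a transcription factor of conventional DCs, had 151, 189, 167, 193 and 173 CPM and 105, 109, 111, 114 and 63.6 CPM (0.82 ± 0.22, adjusted p = 0.0237), a call that was lost without ZT9 replicate 2 or 4 or ZT15 replicate 5 (adjusted p up to 0.067). Of 9 genes shared by DCs 2 were higher and 3 lower, where 8.94% and 3.2% of all genes were. In bulk samples such as these, fewer cells of a type and less RNA per cell cannot be told apart.

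Of 17 genes that mature, migrating DCs switch on, 6 were higher and 1 lower, against 8.94% and 3.2% of all genes. Their median was 0.08, below the 0.12 of all genes. With median-of-ratios scaling it was −0.07, where that of all genes was −0.01, and 3 were higher and 2 lower. Cacnb3, a calcium channel subunit and marker of migratory DCs, had 2094, 2354, 2085, 2216 and 2185 CPM at ZT9. It had 1392, 1423, 1479, 1495 and 1125 CPM at ZT15, so that no groups overlapped (0.67 ± 0.17, adjusted p = 0.021). The call of Cacnb3 was lost without ZT9 replicate 2 or ZT15 replicate 5 (adjusted p up to 0.0573), and without ZT9 replicate 2 1 gene of the list was higher. Marcksl1 was the lower gene (−0.33 ± 0.09, adjusted p = 0.0213).

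Markers of type 2 conventional DCs, the subset that primes CD4+ T cells, were lower in 6 of 12 genes (3.2% of all genes were), and none was higher. Their median was −0.92, and the count was 6 whichever of the 10 mice was left out. The lower genes were Mgl2, Cd209a, Cd209d, Clec10a, Clec4a2 and Csf1r. The other members, Irf4, Sirpa, Itgam, Klf4, Zeb2 and Fcer1g, were not called. Of the 12 genes, 10 had a negative and 2 a positive difference. Mgl2, a lectin of dermal and type 2 DCs, had 4.76, 5.23, 0.620, 2.19 and 0.790 CPM at ZT9. It had 13.2, 11.5, 10.8, 24.1 and 28.2 CPM at ZT15, far above (−2.69 ± 0.51, adjusted p = 0.00427). Cd209d, a lectin of the DC-SIGN family, had 7.10, 2.18, 1.99, 2.46 and 3.23 CPM and 13.6, 14.1, 10.1, 24.7 and 25.4 CPM, again without overlap (−2.26 ± 0.37, adjusted p = 0.00156). Clec10a differed by −1.77 ± 0.35 (adjusted p = 0.00508). Mgl2 and Clec10a are near copies of each other, their values were fractions of a read in 97.7% and 100% of the libraries, and their reads may have been shared, so that the difference is better assigned to the pair than to either. The summed level of the 12 markers was 508 to 586 CPM at ZT9 and 656 to 715 CPM at ZT15.

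Of 12 markers of type 1 conventional DCs, which cross-present to CD8+ T cells, 3 were lower and 1 was higher (3.2% and 8.94% of all genes). With median-of-ratios scaling 5 were lower and none was higher. The summed level of the 12 markers was 903 to 1065 CPM at ZT9 and 834 to 984 CPM at ZT15, which overlapped. Xcr1, the receptor for the chemokine XCL1 that defines them, had 5.16, 7.24, 4.66, 5.95 and 1.81 CPM at ZT9 and 14.5, 12.6, 8.29, 14.4 and 24.5 CPM at ZT15 (−1.52 ± 0.42, adjusted p = 0.0269). ZT9 replicate 5 had the lowest and ZT15 replicate 5 the highest value, and without either the call was lost, as it was without ZT9 replicate 3 or ZT15 replicate 1 (adjusted p up to 0.0746). Naaa was lower by −0.98 ± 0.26 (adjusted p = 0.0209). The other lower member, Cd8a, is carried by type 1 DCs and by CD8+ T cells, is a member of the T cell list as well (−0.73 ± 0.20, adjusted p = 0.0233) and was kept in 27 of 30 settings. The higher member, Irf8, which encodes the factor that specifies type 1 DCs, differed by 0.38 ± 0.11 (adjusted p = 0.0377) and was called in 20 of 30 settings, not with median-of-ratios scaling (adjusted p = 0.235).

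Markers of other cells moved with these differences. Of 12 macrophage and monocyte markers 11 were tested and 7 were lower (3.2% of all genes were), none was higher, and the median was −1.09. Their summed level was 409 to 576 CPM at ZT9 and 834 to 1071 CPM at ZT15. Lyz2, lysozyme of macrophages and monocytes, had 476, 429, 389, 306 and 358 CPM at ZT9. It had 847, 859, 657, 741 and 834 CPM at ZT15 without overlap (−1.02 ± 0.16, adjusted p = 0.00148). Ccr2, the receptor by which monocytes leave the marrow and which type 2 DCs share, had 0.288, 3.96, 6.70, 2.62 and 1.38 CPM and 9.99, 9.56, 12.9, 13.4 and 15.1 CPM (−2.20 ± 0.42, adjusted p = 0.00413), with fractions of a read in 95.5% of the libraries. C1qa, a complement gene of macrophages, had 13.7, 13.4, 12.9, 12.7 and 10.4 CPM and 26.5, 29.8, 27.00, 16.6 and 42.98 CPM (−1.09 ± 0.20, adjusted p = 0.00364). Genes that are lower at ZT9 and that macrophages also express, such as Cfp, which encodes the complement regulator properdin (−1.37 ± 0.16, adjusted p = 0.000254), Lgals3 (−0.82 ± 0.11, adjusted p = 0.000439) and Gm2a (−0.89 ± 0.13, adjusted p = 0.000853), were among the 12 with the smallest p. The part of these cells in the lower levels of Il1b, Tnf, the chemokine genes and the type 2 DC markers at ZT9 was not tested.

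T cell markers were lower in 12 of 23 genes tested (3.2% of all genes), and none was higher, with a median of −0.56 and a summed level of 636 to 879.9 CPM at ZT9 and 916 to 1120.3 CPM at ZT15. Cd3e, a chain of the T cell receptor complex, had 54.3, 29.8, 37.4, 27.97 and 43.9 CPM at ZT9. It had 70.5, 70.7, 80.1, 64.8 and 57.3 CPM at ZT15, and the highest at ZT9 lay just under the lowest at ZT15 (−0.86 ± 0.20, adjusted p = 0.0133). Without ZT9 replicate 2 the number of lower T cell markers was 4. Of 11 NK cell markers 3 were lower, Nkg7 among them (−0.97 ± 0.20, adjusted p = 0.00652). The sort for CD11c and high MHC class II would remove most T and NK cells. They also express Cxcr6 and Cxcr3, and their part in the lower levels of these genes was not tested.

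None of 11 B cell markers was called, and none of the 5 granulocyte markers of 11 that could be tested, numbers of genes in which the shares of all genes (8.94% higher and 3.2% lower) would give few calls. For the granulocyte markers the summed level was 0.473 to 3.45 CPM at ZT9 and 2.65 to 15.2 CPM at ZT15, with the highest in ZT15 replicate 3. The granule genes Camp and Mpo were listed at 0 in 9 and 8 of the 10 libraries. The melanocyte genes Mlana, Tyrp1, Dct and Tyr, which B16 cells would bring, were listed at 0 in 9, 9, 8 and 6 of the 10 libraries and did not exceed 1.37 CPM in any. Of the other markers of the list, Sox10 was not analysed here, and Pmel and Mitf were above 0 in all 10 libraries and did not exceed 2.07 CPM in any.

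The remaining genes of the 12 lower ones with the smallest p were Ckb and Ly6e. Ckb, the brain-type creatine kinase, had 9.28, 6.97, 6.99, 8.86 and 6.85 CPM at ZT9 and 20.1, 17.8, 21.03, 20.4 and 27.1 CPM at ZT15 (−1.39 ± 0.16, adjusted p = 0.000254). Ly6e, a surface protein of many immature lymphoid and myeloid cells, had 178, 107, 140.4, 139 and 122 CPM and 301, 388, 260.3, 308 and 426 CPM (−1.29 ± 0.15, adjusted p = 0.000254). Neither overlapped between the times.

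Several further groups gave few calls with libraries scaled by their total. Of 19 NF-κB genes 2 were higher and 3 lower, beside 8.94% and 3.2% of all genes. Nfkbiz, an inducible nuclear cofactor of NF-κB, was lower by −1.30 ± 0.26 (adjusted p = 0.00539), and the kinase gene Ikbkb was higher by 0.69 ± 0.17 (adjusted p = 0.017). Of 19 genes of the unfolded protein and integrated stress responses 1 was higher (Ddit3) and 1 lower (Dnajb9), both in part of the settings only (24 of 30 for Dnajb9 and 15 of 30 for Ddit3, which had an adjusted p of 0.205 with median-of-ratios scaling). With that scaling none of the 19 was higher and 5 were lower, where 607 and 668 of all 11963 genes were. Of 15 glucocorticoid targets 1 was lower, the mRNA decay factor gene Zfp36, with −0.50 ± 0.15 (adjusted p = 0.0324, kept in 23 of 30 settings). With median-of-ratios scaling 4 of the 15 were lower. Of 31 cell cycle genes 1 was lower (Mki67, −0.60 ± 0.16, adjusted p = 0.0227, kept in 27 of 30). Of 8 plasmacytoid DC markers 1 was lower (Cox6a2) and of 7 Langerhans cell markers 1 (Spi1, kept in 22 of 30). The median of the plasmacytoid DC markers was −0.67. With median-of-ratios scaling it was −0.80, and 4 of the 8 were lower.

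The same comparison was fitted in sham-injected control mice and in tumour-bearing mice labelled Bmal1ΔcDC, each with 3 mice per time. In sham-injected mice no gene was called (0% of 11963, with 1205 genes at an unadjusted p under 0.05 in limma and none with median-of-ratios scaling). In the Bmal1ΔcDC-labelled mice 13 genes were called (0.109%), 1 higher and 12 lower, and none with median-of-ratios scaling. Fewer mice and libraries that were mostly deeper set these groups apart from the first, and a call in one group only does not show a difference. Arntl, the gene targeted there, had 18.4, 11.5 and 16.8 CPM at ZT9 and 21.6, 13.9 and 17.2 CPM at ZT15 in these mice, within or above the range of the 10 control mice with tumour, although values per gene do not separate the floxed exon from the rest. The difference between groups was tested as an interaction. It was called for 372 genes between the genotype labels (3.11%), of which 356 had a lower value of ZT9 minus ZT15 in the Bmal1ΔcDC-labelled mice, and for 6 genes between tumour and sham (0.0502%). With median-of-ratios scaling these were 87 genes (27 with a higher and 60 with a lower value) and 18 genes. The 372 genes became 77 without Bmal1ΔcDC ZT9 replicate 2, 103 without control ZT15 replicate 5, and 115 to 168 without any 1 of 7 other mice (control ZT9 replicates 2, 3 and 4, control ZT15 replicate 1, Bmal1ΔcDC ZT9 replicate 1, and Bmal1ΔcDC ZT15 replicates 1 and 3). Both interactions share the 10 control libraries, and sequencing depth differed between the groups with little overlap, so that depth and group cannot be told apart.

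Heat shock genes were then compared in the 3 groups, whose libraries are not shared. Cirbp in sham-injected mice stood at 189, 229 and 239 CPM at ZT9 and at 82.2, 137 and 90.3 CPM at ZT15, without overlap (1.11 ± 0.22, adjusted p = 0.341). In Bmal1ΔcDC-labelled mice it stood at 189.8, 185 and 163 CPM and at 101, 87.7 and 85.7 CPM, without overlap (0.97 ± 0.20, adjusted p = 0.107). Hspa8 differed by −0.56 ± 0.14 in sham-injected mice and by −0.62 ± 0.14 in Bmal1ΔcDC-labelled mice (adjusted p = 0.368 and 0.137). Dnajb1 had a difference of −0.11 ± 0.17 in sham-injected mice and of −0.71 ± 0.16 in Bmal1ΔcDC-labelled mice (adjusted p = 0.823 and 0.137), and its interaction between tumour and sham was −0.66 ± 0.19 (adjusted p = 0.132). Of the 21 members that were lower in control mice with tumour, 18 had a negative difference in sham-injected mice and 21 in Bmal1ΔcDC-labelled mice. Of all 11963 genes, 5491 and 7780 had a negative difference in these groups. None of the list had a called interaction with the genotype label. The share of all genes, 3.11%, would give few calls among 38 members, so that this does not show an equal difference in both groups. The median of the list was −0.19 in sham-injected mice, where that of all genes was 0.04, and −0.37 in Bmal1ΔcDC-labelled mice, where that of all genes was −0.14. For the other lists with at least 6 lower members, the medians in these 2 groups were as follows. They were 0.09 and −0.49 for immediate early genes, 0.09 and −0.44 for chemokines and receptors, and 0.11 and −0.30 for MHC class II. For T cell markers they were −0.29 and −0.37, for macrophage and monocyte markers −0.06 and −2.01, and for type 2 DC markers −0.09 and −1.62. No list was tested between groups.

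Egr1 had a called interaction between tumour and sham. In sham-injected mice it had 606, 543 and 565 CPM at ZT9 and 417, 561 and 395 CPM at ZT15 (0.34 ± 0.19, adjusted p = 0.556), and the interaction was −2.61 ± 0.47 (adjusted p = 0.041). All 6 sham-injected mice stood above all 10 control mice with tumour, so that Egr1 also stood apart by group at both times. The other 2 named genes of this interaction were Baiap2l1 (2.12 ± 0.38, adjusted p = 0.041) and Pex11g, a gene of peroxisome division (1.78 ± 0.33, adjusted p = 0.041). In sham-injected mice Baiap2l1 had 0.607, 1.95 and 2.04 CPM at ZT9 and 1.71, 2.08 and 2.18 CPM at ZT15. No gene of this interaction was called when the replicate number was used as a block, nor without any 1 of 8 mice (control ZT9 replicates 2 to 5, control ZT15 replicates 1, 3 and 4, and sham ZT9 replicate 1).

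Between genotype labels the interactions with the smallest p were those of Myo7a, Atp13a1 and Prr33. Atp13a1, an ATPase of the endoplasmic reticulum that removes misinserted proteins, had 55.2, 60.2, 56.8, 55.8 and 42.5 CPM in control mice at ZT9 and 29.1, 35.4, 27.4, 33.6 and 22.5 CPM at ZT15 (0.87 ± 0.20, adjusted p = 0.0107). In the Bmal1ΔcDC-labelled mice it had 29.9, 29.01 and 46.4 CPM and 61.1, 68.00 and 87.3 CPM, in the opposite order (−1.05 ± 0.22), and the interaction was −1.91 ± 0.31 (adjusted p = 0.00726). Prr33 had 6.53, 6.97 and 5.53 CPM and 8.19, 9.59 and 13.7 CPM in the Bmal1ΔcDC-labelled mice (interaction −3.37 ± 0.58, adjusted p = 0.0137). Myo7a, a myosin, had low values and was not called in control mice (0.42 ± 0.30, adjusted p = 0.378), and its interaction was −3.39 ± 0.54 (adjusted p = 0.00726).

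Of the 19 PI3K, AKT and mTOR genes, 2 (Rictor and Mtor) had a called interaction with the genotype label, against 3.11% of all genes. Rictor had 37.9, 44.3 and 47.5 CPM at ZT9 and 63.6, 44.7 and 46.2 CPM at ZT15 in the Bmal1ΔcDC-labelled mice (−0.24 ± 0.20), which overlapped, and the interaction was −0.97 ± 0.21 (adjusted p = 0.0211). Mtor differed by −0.77 ± 0.30 in those mice, with an interaction of −1.44 ± 0.38 (adjusted p = 0.0397). Tnf had 78.8, 72.4 and 79.03 CPM and 57.7, 90.5 and 70.97 CPM there, with an interaction of 1.66 ± 0.47 (adjusted p = 0.0473), and Cxcr6 had 64.9, 48.7 and 111 CPM and 138, 50.4 and 82.4 CPM, with an interaction of 1.83 ± 0.51 (adjusted p = 0.0457). The levels of Cxcr6 in sham-injected mice, 108, 95.4 and 195 CPM at ZT9 and 171, 322 and 129.9 CPM at ZT15, were also above those of all 10 control mice with tumour, so that this gene stood apart by group at both times.

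**Figure D5:**
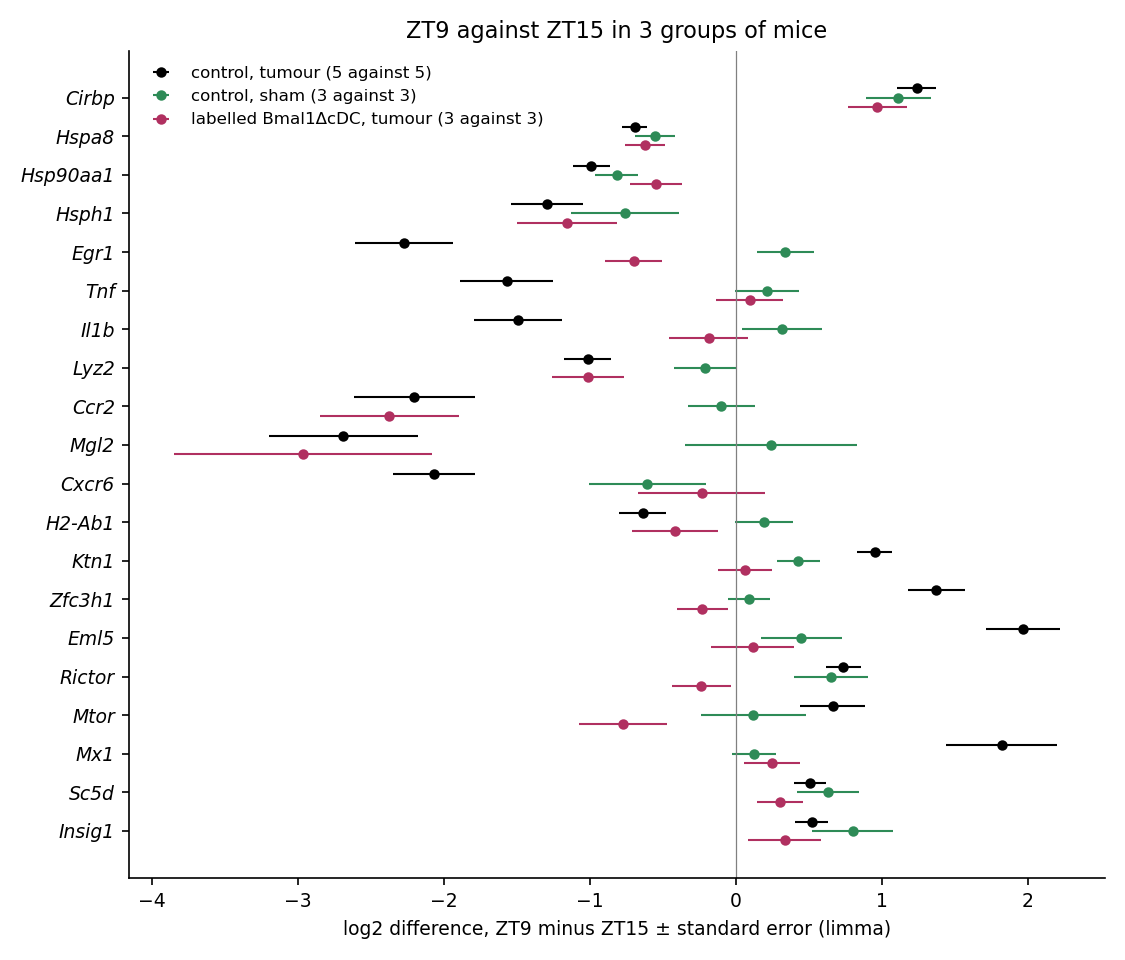
Log2 difference, ZT9 minus ZT15 (x axis), of 20 genes (y axis) in 3 groups of mice: control mice with tumour (black, 5 against 5), sham-injected control mice (green, 3 against 3) and tumour-bearing mice labelled Bmal1ΔcDC (red, 3 against 3). Points are limma estimates and bars their standard errors. Cirbp lies above 0 and Hspa8, Hsp90aa1 and Hsph1 below 0 in all 3 groups, whereas Egr1, Zfc3h1, Eml5 and Mx1 lie far from 0 in control mice with tumour and nearer to it in the others.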

How the data were processed

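RNA of CD45+CD11c+MHCIIhigh cells was reverse transcribed with the SMART-Seq v4 kit from 1 ng, made into libraries with the Nextera XT kit and sequenced as single reads of 50 bases. STAR (alignment to mm10), HTSeq 0.9.1 (counts per gene) and edgeR (library size) were used by the authors, who deposited CPM for 14699 genes, each column adding up to 1000000. These kits do not mark strand, so that reads of a gene and of an overlapping antisense gene cannot be told apart. In each library 85.7% to 87.6% of values corresponded to an integer number of reads (tolerance 0.001). The others were fractions of a read, of which the sources used here give no account, and no count test was therefore run.

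Groups were taken from the sample labels. Genes that reached 1 CPM in 5 of the 44 libraries were tested (11963), and 2736 were not. Values were log2(CPM + 0.5). A mean per timepoint was fitted to the 20 libraries of control mice with tumour by limma (3.58.1, under R 4.3.3), using moderated variances and 2-sided tests, and p-values were adjusted over all genes tested by the method of Benjamini and Hochberg. The other groups were fitted likewise, and interactions with time on the libraries of both groups compared. Each library is of a separate mouse, and none duplicated another. Same-numbered mice at ZT9 and ZT15 did not deviate together (r from −0.11 to 0.10). The model was tested on simulated data. Tables and figures were made with Python 3.11.15, numpy 2.4.6, pandas 2.3.3 and matplotlib 3.10.9. Coordinates are those of RefSeq for GRCm38.p6.

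The comparison, the gene lists and the rules were chosen with earlier results of these data known. A rule named 95 genes, of which 1 is not reported here. It took, by smallest p, 12 genes in each direction among those without overlap, up to 3 called members per list and 3 genes per interaction, and added Arntl, Per1, Dbp, Cd80, Rictor, Mtor and Insig1. Other list members in the text were chosen after their values were seen. Alternatives were pseudocounts of 1 and 0.1, median-of-ratios scaling, no filter or a mean CPM of 10 or more, an intensity trend, array weights, only the 10 or all 44 libraries, the replicate number as a block, and leaving out each library in turn.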

Additional observations from a re-analysis of the deposited data

Results flagged for a closer look

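In 14 of 190 groups of 5 mice examined for the named genes (7.37%), 1 mouse lay apart from the other 4 by more than Dixon's 95% critical value of 0.71 for the gap divided by the range. Chance gives this in about 1 in 20 groups. At ZT15, replicate 2 was apart in Zfc3h1 (highest, 0.718), Cxcl10 (highest, 0.791) and Hspa8 (lowest, 0.732), and in Zfc3h1 and Hspa8 it lay on the side of the ZT9 mice. Replicate 5 at ZT15 was the lowest in Egr1 (0.789), Cacnb3 (0.75) and Zbtb46 (0.852). For Egr1 this was the side of ZT9, and for Cacnb3 and Zbtb46 the side away from it. Replicate 3 at ZT15 was the lowest in Lgals3 (0.736) and the highest in Insig1 (0.734), and replicate 1 was the highest in Dnajb9 (0.795). At ZT9, replicate 2 was the lowest in Cirbp (0.725), replicate 4 in Dbp (0.741), replicate 5 in C1qa (0.716) and Atp13a1 (0.751), and replicate 1, which was listed at 0 CPM, in Ncr1 (0.866).

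For 15 named genes the difference of ZT9 minus ZT15 was itself different between the libraries labelled Bmal1ΔcDC and control mice, both with tumour (limma interaction, Benjamini–Hochberg adjusted over 11963 genes, 3 and 5 mice per time). It was lower in the Bmal1ΔcDC-labelled mice for Ktn1 by an interaction of −0.89 (adjusted p = 0.0234), Htra2 of −0.62 (0.037), Eml5 of −1.85 (0.0211), Gpcpd1 of −0.87 (0.0322), Dclre1c of −1.10 (0.0211), Zfc3h1 of −1.60 (0.0139), Rictor of −0.97 (0.0211), Nlrc5 of −1.48 (0.0458), Mtor of −1.44 (0.0397), Myo7a of −3.39 (0.00726), Atp13a1 of −1.91 (0.00726) and Prr33 of −3.37 (0.0137). The opposite held for Cxcr6, with an interaction of 1.83 (0.0457), Tnf of 1.66 (0.0473) and Marcksl1 of 0.47 (0.044).

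Between tumour and sham in control mice the difference of ZT9 minus ZT15 differed for 3 named genes, all with an adjusted p of 0.041. With the tumour it was higher by 2.12 for Baiap2l1 and by 1.78 for Pex11g, and for Egr1 the interaction was −2.61. None of these was called without any 1 of 8 mice.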

How the results depend on the processing

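With median-of-ratios scaling 607 genes were higher and 668 lower in place of 1069 and 383, and 990 of the 1452 called genes (68.2%) remained called. Array weights gave 2096 and 706. Other pseudocounts, filters, the intensity trend, only the 10 libraries or all 44 libraries gave counts within 1.5 times those reported. Of 89 called named genes 58 were called under every alternative that could test them, and none changed sign. With median-of-ratios scaling 3 PI3K, AKT and mTOR genes, 4 splicing factors and 3 migratory DC genes were higher and 17 immediate early genes were lower. The medians of the sterol sensing and the migratory DC lists were then −0.0017 and −0.069, where that of all genes was −0.01. No gene was called with that scaling in the Bmal1ΔcDC-labelled mice (0), and the genotype and treatment interactions were called for 87 and 18 genes. With the replicate number as a block, which pairs no samples here, 773 genes were higher and 287 lower (1031 of the called genes shared), and 0 genes in the Bmal1ΔcDC-labelled mice, 162 genotype interactions and 0 treatment interactions were called.

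Leaving out 1 mouse at a time gave 511 to 1549 higher and 215 to 498 lower genes, with 511 and 239 without ZT9 replicate 2, 523 and 252 without ZT15 replicate 5, 576 and 235 without ZT9 replicate 4, 620 and 215 without ZT15 replicate 1, 624 and 250 without ZT9 replicate 3, and 1549 higher without ZT3 replicate 3. It gave 0 to 9 genes in the Bmal1ΔcDC-labelled mice, 0 in sham-injected mice, 77 to 395 genotype interactions and 0 to 120 treatment interactions (120 without ZT15 replicate 2). In the lists it gave 16 to 20 lower heat shock genes, 5 to 15 immediate early, 0 to 8 MHC class II, 4 to 13 T cell, 8 to 10 chemokine, 6 type 2 DC and 6 to 7 macrophage genes that were lower, and 3 to 6 PI3K, AKT and mTOR, 5 to 13 splicing and 1 to 7 migratory DC genes that were higher. The causes were not tested.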

Other observations

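Genes with a zinc finger protein symbol (Zfp), a group chosen after its values were seen, were higher at ZT9 in 47 of 317 genes tested and lower in 1, where 8.94% and 3.2% of all genes were, with a median difference of 0.40, where that of all genes was 0.12. With median-of-ratios scaling 29 were higher and 2 lower, where 607 and 668 of all 11963 genes were, and the median was 0.27. Most Zfp genes encode DNA-binding proteins of the KRAB family, which repress transposable elements and other targets.

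The higher and the lower genes differed in the length of their longest transcript, with a median of 3999 bases for genes higher at ZT9, 2113 bases for genes lower at ZT9 and 3372 bases for all genes tested. Their GC content was 48.6%, 51.4% and 49.7%, and their median level 29.2, 28.0 and 20.9 CPM.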
